A study of Mus musculus with 3 samples.

Results

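Among 14777 single cells sorted from mouse embryos for a Mesp1-Cre lineage reporter, 111 cells (0.751%) carried transcripts of Isl1 together with the growth factor genes Fgf8 or Fgf10 and passed a set of exclusions, and these cells are described here. They were selected on their own counts of unique molecular identifiers (UMIs, 1 per captured transcript). A member had at least 1 Isl1 UMI, at least 2 UMIs of Fgf8 and Fgf10 together, no UMI of Msc, Tlx1 or Irx1, under 2 of Sox2, under 3 of Epcam, and under 50 UMIs per 10000 of the contractile genes Myl7, Tnnt2, Ttn and Myl4 summed. The working name of this selection was anterior second heart field progenitors. The data bore that name out for a minority of the cells, as described below, so they are called Isl1/Fgf cells.

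The second heart field is mesoderm of the pharynx that lies behind the early heart tube and adds cells to its ends. Isl1, a LIM homeodomain transcription factor, marks these progenitors, while Fgf8, Fgf10, Tbx1 and Nkx2-6 mark the anterior part, which gives rise to the outflow tract and right ventricle. Isl1 and Fgf10 are also expressed in posterior lateral plate mesoderm at the level of the hindlimb, where the transcription factor Pitx1 and posterior Hox genes are active. Wls (Wntless) is a membrane protein that carries Wnt ligands to the cell surface, so a cell without it cannot secrete them.

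All embryos carried Mesp1-Cre, which is active in early mesoderm, and the Ai9 tdTomato reporter, on a C57BL/6 background. Controls were Mesp1-Cre; Ai9; Wls fl/+, with 1 floxed allele that the same Cre can recombine, and the per-cell table calls them wildtype. Mutants were Mesp1-Cre; Ai9; Wls fl/fl. Since the deletion is limited to the Mesp1-Cre lineage, cells outside it can still secrete Wnt proteins. Embryos were dissociated, tagged with lipid-anchored barcodes (MULTI-seq) and sorted for the reporter, and the labels divide the cells into 3 sequencing runs. The series asked how Wnt secretion by heart field cells acts on second heart field fate.

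The unit of replication was the barcode sample, of which there were 22, and the labels do not say how many embryos each barcode held, so that p-values measure the spread between barcode samples. The 111 cells came from 18 of them: 77 cells were control and 34 mutant, with 38 at E8.0, 15 at E8.5 and 58 at E9.5. The sample labelled E7.5 held none among its 28 cells. At E8.5 only 2 of the 15 cells were mutant. Isl1/Fgf cells had a median of 23330 UMIs (range 3669 to 65843) and 5591 detected genes, against a median of 21733 UMIs in all other cells. Median depth was 23420 UMIs in control and 22152 in mutant members. Between runs, 23 10x barcode sequences recurred, and 1 of them belonged to a member. A single member, in the E9.5 control sample Bar4, had 21.1% of its UMIs from globin genes, against 1.06% in the next highest member and a median of 0.165%. Marker genes of neural, neural crest, endothelial and paraxial cells summed to 15.8, 8.80, 83.6 and 55.8 CPM (UMIs per 1000000 UMIs of the cells summed) in members, against 24.2, 9.52, 93.2 and 165 in all other cells. Endoderm and epithelium, pharyngeal muscle and posterior second heart field markers were higher in members, at 500.4, 77.8 and 486 against 447, 69.8 and 396. Blood and cardiomyocyte markers were lower, at 6161 and 344 against 55473 and 2578. Some of these lists hold genes that the rule capped or excluded, so the selection partly set their sums. These genes are Sox2 (neural), Epcam (endoderm and epithelium), Msc and Tlx1 (pharyngeal muscle), and Myl7, Tnnt2, Ttn and Myl4 (cardiomyocyte).

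Most members lay close to the limits that chose them. Of 111, 39 had exactly 1 Isl1 UMI and 64 had exactly 2 Fgf UMIs. A further 20 had 3 Fgf UMIs, and the highest had 20. Another 170 cells met every criterion but had only 1 Fgf UMI. In contrast, the contractile limit fell in a gap: the highest member had 36.8 UMIs per 10000, and the lowest cell outside had 52.1. The Irx1 criterion removed 295 of 462 cells, the largest share of any step after the Fgf criterion. When every cell was first reduced to 10000 UMIs, the same rule chose 79 cells, of which 32 were among the original 111.

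Tbx1, a T-box factor of pharyngeal mesoderm, and Nkx2-6, a homeodomain factor of pharyngeal and outflow cells, served to check the working name. At least 1 UMI of either was present in 44 members (39.6%, 95% exact binomial interval 30.5 to 49.4%, counting error only). The share was 88.8% of 240 cells that met the Isl1 and Fgf rule but had an Irx1 UMI, and 91.0% of 122 that had an Msc or Tlx1 UMI. Among 1033 Isl1-positive cells without any Fgf8 or Fgf10 UMI it was 10.8%. The level set by free RNA was read from 1669 cells with over 20% globin UMIs, of which 2.76% had a Tbx1 or Nkx2-6 UMI at a median of 26702 UMIs. The Isl1/Fgf cells were thus above background in these genes, and below the excluded Irx1-positive cells.

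A second group of genes set many of the remaining members apart. The 22 genes counted were Cdx1, Cdx2 and Cdx4 and the Hox paralogues 8 to 13, which are active in the trunk and tail. Of the members, 41 (36.9%, interval 28.0 to 46.6%) had at least 3 UMIs of these genes, against 1.25% of Irx1-positive cells, 30.6% of the Isl1-positive cells without Fgf UMIs and 0.0599% of globin-high cells. Members with many Hox and Cdx UMIs had few of Tbx1 or Nkx2-6. Among members with 10 or more Hox and Cdx UMIs, 27 had no Tbx1 or Nkx2-6 UMI, 2 had 1 or 2 and none had 3 or more. Low counts of Hox and Cdx genes did occur with Tbx1 or Nkx2-6: of members with 3 or more Tbx1 or Nkx2-6 UMIs, 15 had no Hox or Cdx UMI, 10 had 1 or 2 and 2 had 3 to 9. By these 2 criteria, chosen after the values were seen and so not tested, 37 members had Tbx1 or Nkx2-6 only, 34 had Hox and Cdx genes only, 33 had neither and 7 had both. Their median depths differed, at 17377 UMIs for the Tbx1 class, 31303 for the Hox and Cdx class and 23306 for cells with neither. At a fixed depth of 10000 UMIs, which left out 9 shallower members, 33.3% had Tbx1 or Nkx2-6, 31.4% had the Hox and Cdx genes and 0 cells had both.

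**Figure D1:**
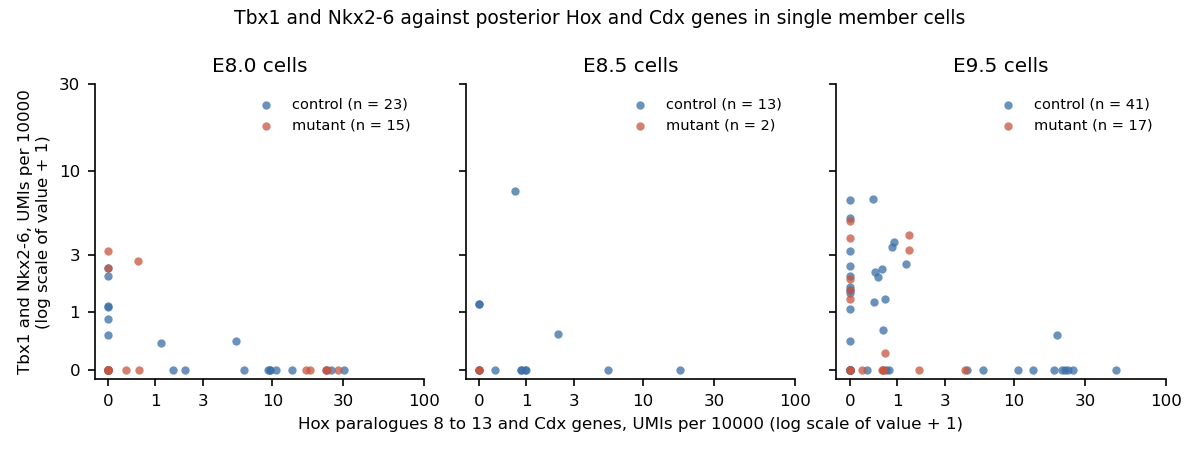
Each point is 1 of the 111 member cells, by stage, with summed Hox 8 to 13 and Cdx UMIs per 10000 on the horizontal axis and Tbx1 plus Nkx2-6 UMIs per 10000 on the vertical axis, both on a log scale of value + 1. In the cells farthest to the right Tbx1 and Nkx2-6 were low or absent: 27 members with 10 or more Hox and Cdx UMIs had no Tbx1 or Nkx2-6 UMI and 2 had 1 or 2.

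The Tbx1 class had higher levels of Mef2c, Nkx2-5, Irx3 and Irx5 than the other 2 classes. Levels are CPM over all cells of a class and compare the same gene between cells. The genes below were picked after their values were seen. Tbx1 itself stood at 200 in this class and at 167 in Irx1-positive cells. Fgf8, a gene of the selection and given only as a description, was at 220 in the Tbx1 class, 16 in the Hox and Cdx class and 24.4 in cells with neither. Mef2c, a MADS-box factor of the anterior heart field, was at 142, 11.6 and 66.9 in the same order. Nkx2-5, a cardiac homeodomain factor, reached 73.8 in the Tbx1 class, 0 in the Hox and Cdx class and 9.01 in the third. The Iroquois genes Irx3 and Irx5, neither used in the selection, were at 214 and 166 in the Tbx1 class and at 199 and 146 in the Irx1-positive cells. In the Hox and Cdx class Irx3 and Irx5 were at 68.6 and 16.9, and in cells with neither at 41.2 and 36.0. The Tbx1 level of this class follows from its definition. The 8 cardiomyocyte markers include Nkx2-5 and the contractile genes Myl7, Tnnt2, Ttn and Myl4, which the rule capped. Their sum also differed between the classes, at 838 in the Tbx1 class, 89.1 in the Hox and Cdx class and 342 in cells with neither. Their part in the levels of Mef2c and Nkx2-5 was not tested.

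Outside the genes that define it, the Hox and Cdx class had the highest levels of Pitx1, Hand1, Msx1 and Lef1 of the 3 classes. Pitx1, a homeodomain factor of the hindlimb field, was at 175 against 0 in the Tbx1 class and 3.86 in cells with neither. Hoxc10, a posterior Hox gene, was at 131 in this class and at 0 in both others. Cdx2 and Cdx4, caudal-type factors of the tail region, stood at 151 and 157. All 3 are among the 22 genes that define the class, so these levels follow from the definition. Hand1, a bHLH factor of lateral plate mesoderm, was at 139 against 15.4 and 23.2, and Msx1, a homeobox gene that responds to BMP, at 208 against 10.8 and 72.0. Lef1, which mediates and responds to canonical Wnt signalling, was at 172 against 33.8 and 52.7. Isl1 and Fgf10 chose the members, so their levels are a description only. Isl1 was lowest here, at 82.9 against 231 in the Tbx1 class and 145 in the third. Fgf10 varied less between the classes, at 56.9 in the Tbx1 class, 59.7 in the Hox and Cdx class and 86.2 in cells with neither.

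The 33 cells with neither had the highest levels of Barx1, Nr2f2 and Nr2f1 of the 3 classes. Barx1, a homeobox gene of stomach mesenchyme, stood at 396 against 1.54 in the Tbx1 class and 8.02 in the Hox and Cdx class. A Barx1 UMI was found in 14 of these 33 cells, and at E8.0 in 1 of 38 members of any class. Over all members, Bar3 had 163 Barx1 UMIs, Bar23 65 and Bar19 34. Other samples with at least 3 members had at most 3. Nr2f2 and Nr2f1, nuclear receptors of the posterior heart field and venous pole, were at 524 and 175, with 131 and 21.5 in the Tbx1 class. Aldh1a2, which makes retinoic acid, was at 106 against 41.5 and 32.1. Foxf1, a Hedgehog-responsive factor of splanchnic mesoderm, was present in all 3 classes, at 92.3, 162 and 184. Tbx1 and Nkx2-6 were at 0 in this class by the way it was defined.

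**Figure D2:**
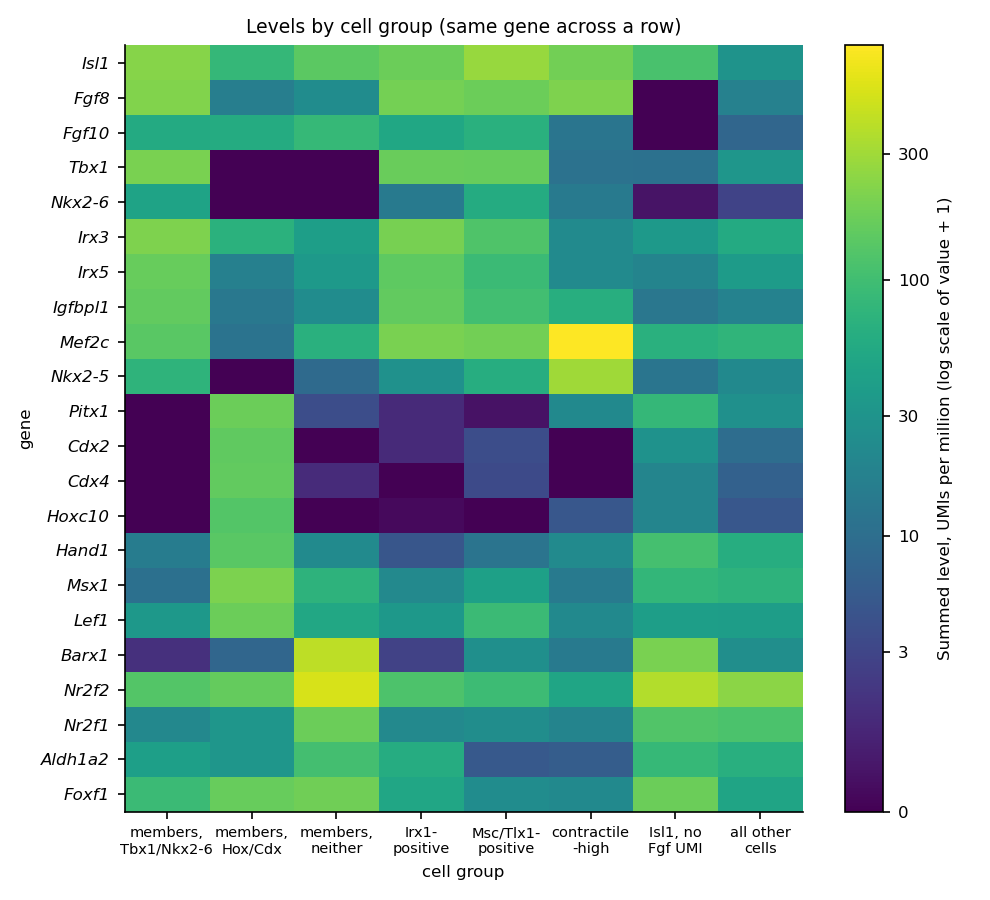
Colour gives the summed level of each gene, in CPM on a log scale of value + 1, in the 3 main classes of members and in 5 groups of other cells. A row compares 1 gene between cells: Irx3 was at 214 in the Tbx1 class and 199 in Irx1-positive cells, Pitx1 was highest in the Hox and Cdx class (175) and Barx1 in cells with neither (396), while Tbx1, Nkx2-6, Cdx and posterior Hox levels follow from how the classes were defined.

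In genome terms (GRCm38, GENCODE M21 annotation), Isl1 lies on chromosome 13 from 116298281 to 116309689 on the minus strand and Fgf10 on the same chromosome from 118669791 to 118792115 on the plus strand. Fgf8 lies on chromosome 19 from 45736798 to 45742915, Tbx1 on chromosome 16 from 18580979 to 18590671 and Nkx2-6 on chromosome 14 from 69171802 to 69175518. All 5 are protein-coding.

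The classes were spread unequally over stages and samples. Tbx1 or Nkx2-6 was found in 28.9% of members at E8.0, 26.7% at E8.5 and 50% at E9.5, and the Hox and Cdx genes in 47.4%, 46.7% and 27.6%. Tbx1 or Nkx2-6 was found in 42.9% of control and 32.4% of mutant members, and the Hox and Cdx genes in 41.6% and 26.5%. Members with neither made up 22.1% of control and 47.1% of mutant members (16 of 34). No class share was tested between genotypes, since the classes were chosen on these values.

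A set of 3 groups of other cells served as the nearest neighbours of the Isl1/Fgf cells, each compared within barcode samples with edgeR's quasi-likelihood test (Benjamini-Hochberg adjusted p under 0.05). Because the groups are split by genes of the rule, these counts are descriptions and nothing is read from them. Against Irx1-positive cells of 4 control samples, 184 of 6180 genes (2.98%) passed, 77 higher and 107 lower in the members. With DESeq2 63 genes passed, 34 higher and 29 lower, and the edgeR count fell to 62 without the E8.5 control Bar3, 110 without the E9.5 control Bar22 and 72 without the E9.5 control Bar23. Among 13 anterior second heart field genes tested, 7 were lower and 0 higher in the members: Tbx1, Mef2c, Eya1, Foxc1, Foxc2, Six2 and Prdm1. Eya1, a transcriptional cofactor, averaged 15.1 CPM in members and 72.9 in Irx1-positive cells, and Six2, a homeodomain factor, averaged 13.5 and 72.8. Nrg1, an ErbB ligand, averaged 27.6 and 182. Higher in the members were Hoxd9 (log2 difference 6.38, SE 0.70), Hoxc10 (6.10, SE 0.63), Pitx1 (5.81, SE 0.49) and Barx1 (5.77, SE 0.45), the genes that lead the other 2 classes. Bmp4, a BMP ligand, averaged 104 against 28.0, and Foxf1 averaged 145 against 53.1.

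Against Isl1-positive cells without Fgf UMIs, 34 of 9942 genes (0.342%) passed, 10 higher and 24 lower. DESeq2 passed 22, with 12 higher and 10 lower, and without Bar3 and Bar23 in turn the edgeR count was 9 and 10. Tbx1 averaged 67.2 CPM in members and 15.4 in the cells without Fgf UMIs. Irx3 averaged 112 in members (log2 difference 1.33, SE 0.16), and Lef1 averaged 93.4 against 41.7. Lower in the members were Wnt2, a ligand of the posterior heart field and lung mesoderm, at 22.3 against 87.0, and Hand1 at 44.4 against 105. The embryonic globins were also lower: Hba-x averaged 483 against 2772 and Hbb-y 576 against 2665. Emcn, an endothelial sialomucin, had 0 UMIs in the members of these 4 samples and averaged 18.6 in the other cells.

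The third comparison was with cells that met the Isl1 and Fgf rule but exceeded the contractile limit, in the 9 barcode samples (5 control and 4 mutant) that held at least 3 of them and 3 members. Here 878 of 3359 genes (26.1%) passed, 397 higher and 481 lower. DESeq2 gave 220 higher and 434 lower. The lower genes were led by sarcomere genes outside the rule: Actc1, cardiac alpha-actin, averaged 22.5 against 6508, Myl3 3.44 against 1498 and Tnnc1 10.2 against 1767. Members had more Foxf1 (149 against 26.5), Aldh1a2 (77.4 against 7.86) and Nr2f2 (270 against 48.8). Mef2c was lower in the members, at 68.7 against 807.

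Members differed by the Fgf ligand they carried. An Fgf8 UMI was found in 58 of the 111 cells, an Fgf10 UMI in 87 and both in 34, and 24 cells had 2 or more Fgf8 UMIs without Fgf10 while 53 had 2 or more Fgf10 UMIs without Fgf8. Tbx1 or Nkx2-6 was present in 70.8% of the Fgf8-only and 13.2% of the Fgf10-only cells, and the Hox and Cdx genes in 25% and 50.9%. Median depth was 18050 UMIs in Fgf8-only and 28771 in Fgf10-only cells, and its part in these shares was not tested. For the gene test below, a fit with cells reduced to equal depth is given with it. Both kinds were summed within each of 10 barcode samples that held both, and tested with the barcode sample as a block. In 6 of the 10 samples 1 cell stood for a kind, so the p-values of this test also carry the spread between single cells. Both kinds are members, chosen on the sum of the 2 ligands and split here by which of them was found. The genes of the rule are left out of the results. Of 2182 genes, 14 (0.642%) passed, 8 higher in Fgf8-only cells, among them 1 unnamed gene model, and 6 lower.

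Npm3, a nucleoplasmin-family histone chaperone, had the smallest adjusted p among the named genes. It ranged from 241 to 1165 CPM (median 591) in Fgf8-only cells and from 109 to 380 (median 215) in Fgf10-only cells, and was higher in Fgf8-only cells in 10 of 10 samples (log2 difference 1.42, SE 0.22, edgeR adjusted p = 0.00032). Vcan, the matrix proteoglycan versican, ranged from 80.4 to 836 (median 288) against 18.1 to 504 (median 65.2), with a log2 difference of 2.04 (SE 0.35). Some genes of contraction were higher as well. Tnni1, a troponin I of embryonic heart and slow muscle, had medians of 301 and 24.4 (log2 difference 2.68, SE 0.47), although it was at 0 in 2 Fgf8-only samples, and Tpm1, a tropomyosin, had medians of 864 and 363 (1.24, SE 0.26). Mylk3, the cardiac myosin light chain kinase, was detected in 5 of 10 Fgf8-only and 1 of 10 Fgf10-only samples (4.63, SE 1.15). Arg1, arginase, and Pdcd4, a translation inhibitor, were higher too, by 2.12 (SE 0.47) and 1.84 (SE 0.41).

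Pitx1 and Barx1 were absent from the Fgf8-only cells, with 0 UMIs among 422837. Pitx1 stood at 119 CPM over all Fgf10-only cells, at least 16.8-fold higher than the limit of 3 UMIs in the Fgf8-only group, and was detected in 7 of the 10 Fgf10-only samples. Barx1 stood at 206, at least 29.0-fold higher, but was detected in only 4 of the 10 samples. Hlx, a homeobox gene of visceral mesenchyme, had medians of 0 and 64.7 (log2 difference -4.19, SE 0.97). Bambi, a BMP pseudoreceptor, had medians of 21.6 and 176 (-2.10, SE 0.41), and Dlk1, a Notch-related membrane protein, 43.1 and 226 (-2.25, SE 0.42). Ipo7, a nuclear import receptor, completed the lower genes at -1.82 (SE 0.41). With DESeq2 6 genes passed, all among the 14. After each cell was reduced to 10000 UMIs, 5 of only 982 genes tested passed, 2 of which were in the original set. Leaving out the E8.0 control Bar29 gave 24 genes, leaving out Bar3 gave 7 and leaving out Bar23 gave 3.

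**Figure D3:**
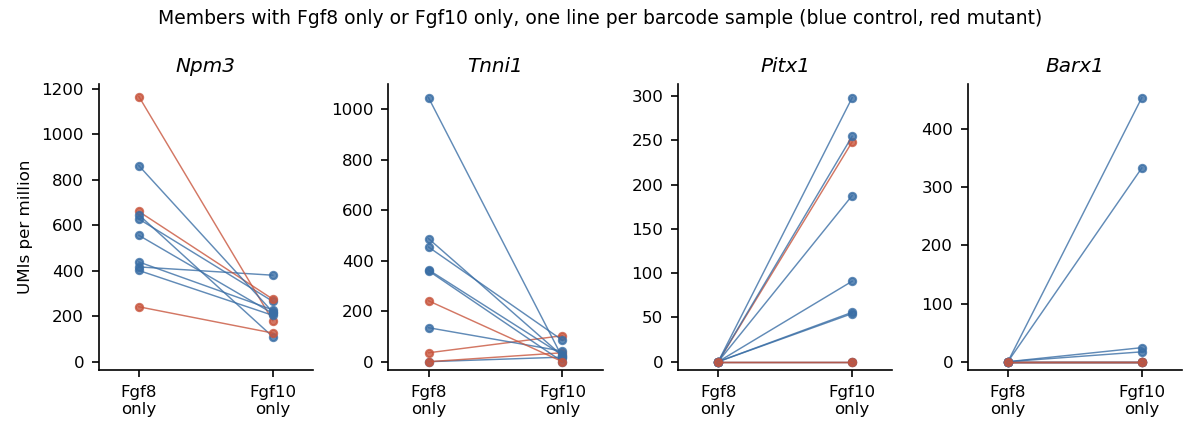
CPM of 4 genes in Fgf8-only and Fgf10-only members, 1 line for each of 10 barcode samples (blue control, red mutant). Npm3 was higher in Fgf8-only cells in 10 of 10 samples, while Pitx1 and Barx1 had no UMI in any Fgf8-only sample.

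For stage and genotype, cells were summed per barcode sample, and 14 samples with at least 3 members entered the fits: 8 control and 6 mutant. Between E8.0 (6 samples) and E9.5 (7 samples), 38 of 5390 genes (0.705%) passed edgeR's quasi-likelihood test, 26 higher at E9.5 and 12 lower. DESeq2 passed 35 genes, 30 of them shared. E8.0 samples were all in sequencing run 1, and within that run alone 32 genes passed. The mixture of classes also changed with stage, as given above, and its part in these differences was not tested.

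The genes that rose included Col3a1, Crabp2, Nes and Barx1. Col3a1, a fibrillar collagen chain, ranged from 0 to 18.7 CPM (median 8.90) at E8.0 and from 0 to 179 (median 92.1) at E9.5, a log2 difference of 3.48 (SE 0.55, edgeR adjusted p = 0.00877), and stayed past the threshold under all 21 alternatives in which it was tested. The ranges overlapped through the E9.5 samples Bar4 and Bar21. In all other cells of the same samples Col3a1 ranged from 15.6 to 37.4 at E8.0 and from 103 to 233 at E9.5. Tshz2, a zinc-finger factor, rose by 2.22 (SE 0.46) and Crabp2, which carries retinoic acid to the nucleus, by 2.18 (SE 0.44), from a median of 37.7 to 150. Dact3, a Wnt pathway antagonist, rose by 2.27 (SE 0.51) and Nes, the intermediate filament nestin, by 2.17 (SE 0.44). Nes did not overlap between stages: it ranged from 0 to 19.7 at E8.0 and from 21.4 to 105 at E9.5. Barx1 rose from 0 in 5 of 6 E8.0 samples to a median of 9.26 at E9.5, where it ranged from 0 to 365 (log2 difference 6.12, SE 1.31).

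The genes that fell included Trim71, Lin28a, Lefty2 and Osr1. Trim71, an RNA-binding protein of early embryos, ranged from 218 to 285 (median 248) at E8.0 and from 78.3 to 140 (median 117) at E9.5, without overlap, and fell by 1.01 on the log2 scale (SE 0.18, edgeR adjusted p = 0.0166). Lin28a, an RNA-binding protein that blocks let-7 maturation, fell by 1.08 (SE 0.25), from a median of 413 to 216. In all other cells Trim71 had medians of 173 and 110, and Lin28a of 267 and 128. Lefty2, a Nodal antagonist of the left lateral plate, reached 321 at E8.0 and was at 0 in 5 of 7 E9.5 samples (-5.36, SE 1.18). Osr1, a factor of the posterior heart field and intermediate mesoderm, fell by 2.10 (SE 0.42), from a median of 100.2 to 26.3. Its other-cell medians were 16.1 and 14.2. Phlda2, an imprinted growth regulator, fell by 2.39 (SE 0.52).

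Of the gene lists drawn up for the tissue, few genes passed between stages. Of 10 posterior second heart field genes tested, 1 fell (Osr1) and 0 rose, with a median log2 difference of 0.34 against 0.00 over all genes. Of 13 anterior genes 0 passed, with a median of 0.28. From 6 cardiomyocyte genes 1 rose, Tnni1 (1.54, SE 0.36), from 18 low-oxygen and glycolysis genes 1 rose, P4ha1, a collagen prolyl hydroxylase (1.70, SE 0.34), and from 6 retinoic acid genes 1 rose, Crabp2. This fit pools genotypes. P4ha1 was at 36.0 to 60.7 CPM in the 6 E8.0 samples, at 47.1 to 95.4 in the 4 E9.5 controls and at 156 to 451 in the 3 E9.5 mutants. Tnni1 was at 115 to 423 in the E9.5 controls and at 19.3 to 133 in the E9.5 mutants, against 25.7 to 71.9 at E8.0. Which samples entered mattered: the count of 38 became 8 without the E8.0 control Bar24, 11 without Bar29, 19, 6 and 10 without the E8.0 mutants Bar25, Bar27 and Bar28, and 6 without Bar22. Without a term for run it was 15.

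The share of Isl1/Fgf cells among the sorted cells of a barcode sample was compared between genotypes. A share is not a number of cells per embryo, since it also depends on the other cells. At E8.0 the controls had 1.91, 0.651 and 2.11% and the mutants 0.765, 1.14 and 0.714%, so that 1 control lay below all mutants and the groups overlapped. The means were 1.56% ± 0.791 (SD, n = 3) and 0.874% ± 0.233 (SD, n = 3). At E9.5 the controls ranged from 0.610 to 0.822% (mean 0.709% ± 0.101, SD, n = 5) and the mutants from 0 to 1.19% (mean 0.567% ± 0.395, SD, n = 6). Within stage and run, mutants were lower by a mean of 0.273 percentage points (-0.273), with p = 0.186 in an exact two-sided permutation test over 20 samples in 7200 arrangements. Samples with fewer than 20 cells were left out, which removed 1 E9.5 control sample of 6 cells, and the E7.5 control sample had no mutant to compare with. A model on the same samples gave a log2 odds ratio of -0.44 (SE 0.31), which turned to 0.27 (SE 0.39) when the rule was applied to cells reduced to 10000 UMIs. No difference was detectable at this number of cells. The sample with 0 members at E9.5, Bar5, held 57 cells, which allows a share of up to 5.26%.

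**Figure D4:**
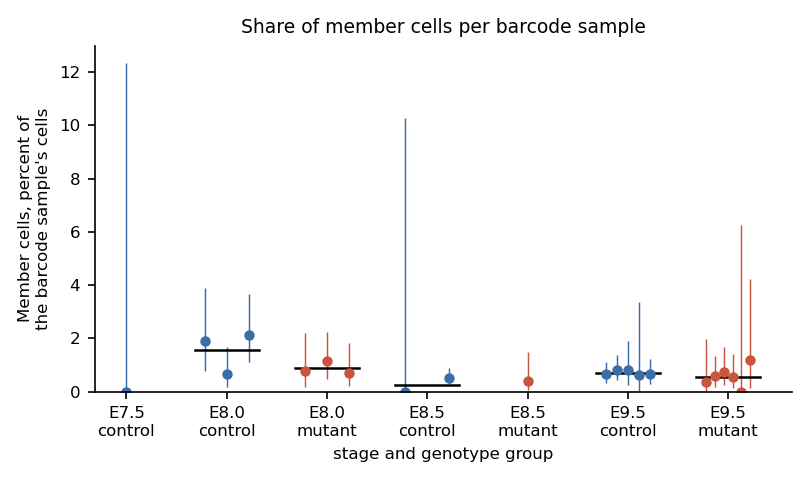
Percent of each barcode sample's cells that were Isl1/Fgf cells, by stage and genotype (blue control, red mutant). Points are samples with 95% exact binomial intervals for counting error, and black bars are group means: 1.56 and 0.874% at E8.0, 0.709 and 0.567% at E9.5.

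Wls, the targeted gene (chromosome 3, 159839672 to 159938664, plus strand), was low in mutant members. Control samples had 139, 54.0 and 26.3 CPM at E8.0, 39.3 at E8.5 and 83.4, 69.1, 28.5 and 94.1 at E9.5. Mutant samples had 0, 51.4 and 0 at E8.0 and 0, 0 and 0 at E9.5. The exception was the E8.0 mutant Bar27, whose 11 Wls UMIs came from 2 of 8 cells, 1 of which had 8. In the other cells of Bar27 Wls stood at 13.5 CPM and 10.4% of cells had a UMI. Overall 62.3% of control members (48 of 77) and 5.88% of mutant members (2 of 34) had a Wls UMI, against 49.4% and 9.34% of all other cells. At E9.5 control members stood at 70.9 CPM, at least 7.53-fold higher than the limit of 3 UMIs among the 318427 of the mutants. Wls did not pass edgeR's adjusted threshold across all genes (all stages: log2 difference -2.36, SE 0.68, adjusted p = 0.648), and without Bar27 the adjusted p was 0.231. With no filter on low counts it passed over all stages (-2.44, edgeR adjusted p = 0.000291) and at E9.5 (adjusted p = 0.000123), and it passed over all stages with at least 1 Fgf UMI per cell (-2.49, adjusted p = 0.0199). With DESeq2 the adjusted p over all stages was 0.922. The call for the targeted gene thus depended on these settings.

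Across all stages, 0 of 5390 genes (0%) differed between mutant and control members by edgeR's quasi-likelihood test with stage and run as terms. At an unadjusted p under 0.05 there were 290 genes (5.38%), and DESeq2 passed 0. A test of whether genotype acted differently at E9.5 than at E8.0 likewise gave 0 of 4978 genes (0%), 291 unadjusted and 0 with DESeq2. Leaving out samples in turn gave 1 gene over all stages without Bar26 or Bar20. For the difference between stages it gave 5 without Bar25, 4 without Bar20, 2 without Bar26 and 1 each without Bar22, Bar23 and Bar9. With at least 3 Fgf UMIs per cell, which kept 47 cells and 6 samples, 128 of 3715 genes passed over all stages. The 6 samples leave little from which to estimate the spread, and nothing is read from this count. These fits held small sums, from 51871 UMIs in the E9.5 mutant Bar21 to 432697 in the E8.5 control Bar3. Y-linked UMIs over all cells were at 2.74 to 70.7 CPM in the fitted controls and at 10.4 to 151 in the mutants. Sex and genotype thus largely ran together. With the share of Y-linked UMIs as a covariate, 0 genes passed over all stages.

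At E8.0, 1 of 2922 genes (0.0342%) passed, Rpl34, a protein of the large ribosomal subunit. It stood at 1442, 1152 and 1267 CPM in control members and at 603, 626 and 581 in mutant members, without overlap (log2 difference -1.08, SE 0.13, edgeR adjusted p = 0.00577). The same difference was present in all other cells of these samples, at 1296, 1261 and 1244 against 576, 599 and 577, and the difference of the effect between members and other cells was -0.11 (adjusted p = 0.964). Rpl34-ps1, a processed pseudogene, ran the other way in members, at 87.3, 162 and 121 in controls and 244, 233 and 150 in mutants, with overlap. In all other cells it did not overlap, at 123, 125 and 119 against 229, 241 and 227. Whether reads were divided between the gene and this copy was not tested. Rpl34 lies on chromosome 3, as does the targeted gene Wls, and whether this bears on the difference was not tested. Rpl34 also varied within E9.5, at 1269, 665, 320 and 1242 in control members and 1139, 674 and 810 in mutant members. These 4 controls had 2.74 to 8.58 Y-linked CPM over all cells and the mutants 151, 10.4 and 136. The 3 E8.0 mutants had 127 to 138 Y-linked CPM over all cells, and the 3 controls, in the order above, 9.98, 8.55 and 70.7. The sex of the embryos and the genotype thus largely ran together at E8.0, and the part of sex was not tested. The edgeR adjusted p of Rpl34 was 0.0601 without Bar24 and 0.111 without Bar27, with log2 differences of -0.99 and -1.11. The count of 1 became 3 without Bar26 or Bar28 and 2 without Bar29 or Bar25. With only the 3 samples of at least 5 members, 1 of them mutant, 28 genes passed.

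At E9.5, 1 of 4500 genes (0.0222%) passed, Ifitm1, an interferon-induced membrane protein of early mesoderm and germ cells. Control members had 346, 464, 449 and 113 CPM and mutant members 86.0, 40.3 and 38.6, without overlap (log2 difference -2.90, SE 0.39, edgeR adjusted p = 0.0234). In all other cells of these samples it stood at 75.6, 87.9, 108 and 31.2 in controls and 65.0, 95.7 and 48.3 in mutants, which overlapped. Over all stages, the genotype effect on Ifitm1 differed between members and other cells by -0.97 (SE 0.20, edgeR adjusted p = 0.00447). In that test only 1 gene passed with DESeq2 and only 1 without the block. At E8.0 Ifitm1 in members overlapped between genotypes, at 960, 387 and 834 in controls and 449, 677 and 1003 in mutants. Ifitm1 was also unequal between the classes of members, at 669 in the Hox and Cdx class, 242 in the Tbx1 class and 340 in cells with neither. The Hox and Cdx class made up 10 of the 40 E9.5 control members and 2 of the 14 mutant members in these samples, and the part of this in the result was not tested. The call was lost without the controls Bar22 (adjusted p = 0.125) or Bar23 (0.133), without the mutants Bar19 (0.170) or Bar21 (0.0886), with a Y-linked term (0.108) and within run 1 alone (0.0980). The log2 difference was -3.39 with the Y-linked term and -2.84 in run 1, and ranged from -3.33 to -2.52 with each sample left out. Without Bar20, 20 genes passed.

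Pitx1 and Hoxc10, both high in the Hox and Cdx class, were low in E9.5 mutant members but did not pass. Pitx1 had 139, 118, 264 and 0 CPM in controls and 10.7, 11.5 and 0 in mutants (log2 difference -3.70, SE 0.58, edgeR adjusted p = 0.0563). Hoxc10 had 191, 72.4, 164 and 47.1 in controls and 0 in all 3 mutants, at least 13.6-fold lower against the limit of 3 UMIs in the mutant group (edgeR adjusted p = 0.124). At E8.0 Hoxc10 was the other way round, at 0 in 3 controls and at 0, 79.4 and 44.0 in mutants. Among other genes that define that class, Hoxc9 had 67.9, 72.4, 35.6 and 37.6 in E9.5 controls and 0 in the 3 mutants. Hoxc8 had 34.0, 42.8, 49.9 and 28.2 against 0, 5.76 and 0, while Hoxb9 and Hoxd9 overlapped between genotypes. Lef1, Msx1 and Hand1, outside the definition, did not follow this order. Lef1 had 92.6, 69.1, 78.3 and 65.9 in E9.5 controls and 21.5, 167 and 38.6 in E9.5 mutants, and for Msx1 and Hand1 too the mutant Bar20 lay above all 4 controls, at 167 and 86.5. The mutant samples here held 4 or 5 members each, and the limit of 3 UMIs was 32.2 CPM in Bar19, 17.3 in Bar20 and 57.8 in Bar21. In the order above, the E9.5 controls had 22, 22, 5 and 4 Hoxc9 UMIs and 11, 13, 7 and 3 Hoxc8 UMIs. For Hoxc9 and Hoxc8, a count of 0 in Bar21 thus allows levels as high as those of some controls.

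**Figure D5:**
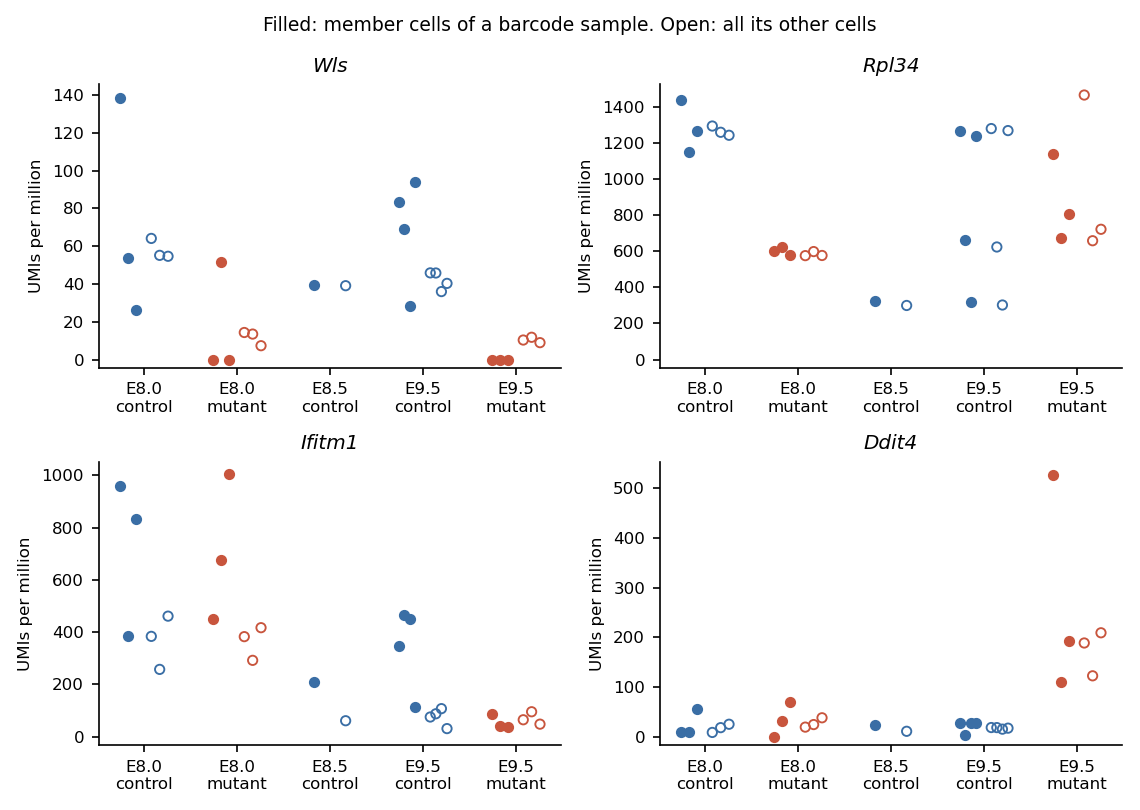
CPM of Wls, Rpl34, Ifitm1 and Ddit4 per barcode sample in members (filled) and all other cells (open), blue control and red mutant. Wls was at 0 in 5 of 6 mutant samples, Rpl34 separated E8.0 genotypes in members and other cells alike, Ifitm1 separated the genotypes in E9.5 members but overlapped in other cells, and Ddit4 was high in E9.5 mutants in both.

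The anterior second heart field genes, which the study's question turns on, showed no called change with Wls loss in these members. Members were chosen for Isl1 and Fgf8 or Fgf10, so cells without these transcripts could not enter. Tbx1 or Nkx2-6 was found in 11 of 34 mutant members, and Wls itself did not pass this test (edgeR adjusted p = 0.648). The lack of a call thus does not show that these genes were unchanged. Of 13 tested over all stages, 6 were positive and 0 passed, with a median log2 difference of -0.14. Tbx1 had 0, 27.0 and 32.8 CPM in E8.0 controls and 64.2, 14.0 and 44.0 in E8.0 mutants. At E9.5 it had 58.7, 145, 42.7 and 94.1 in controls and 0, 5.76 and 289 in mutants, so that the mutant Bar21 was above every other sample and the other 2 were below all controls. The fitted log2 difference over all stages was -0.18 (SE 0.72). Bar21 held 3 members of the Tbx1 class and 1 with both gene groups. Bar19 held 1 of the Hox and Cdx class and 4 with neither. Bar20 held 1 of the Hox and Cdx class, 1 with both and 3 with neither. The part of this mixture of classes in the E9.5 levels was not tested. Mef2c averaged 75.8 in mutants and 81.4 in controls, with a difference of -0.14 (SE 0.51). Sema3c, a guidance ligand of the outflow tract, had 30.9, 29.6, 0 and 113 CPM in E9.5 controls and 0 in the 3 E9.5 mutants. The limit of 3 UMIs was 32.2 CPM in Bar19, 17.3 in Bar20 and 57.8 in Bar21, so 0 there allows levels as high as some controls. At E8.0 Sema3c had 1 UMI in the 3 controls and 0 in the mutants, and it did not pass over all stages (edgeR adjusted p = 0.787). Of 6 outflow and smooth muscle genes, 0 were positive and 0 passed, with a median of -0.70. The 6 cardiomyocyte genes tested were likewise all negative with a median of -0.51 and none called. Nkx2-5 averaged 27.6 in controls and 2.92 in mutants (-3.20, SE 0.93, edgeR adjusted p = 0.648). It had few UMIs, with 26 in the control Bar22, 0 to 7 in the other control samples and 0 or 1 in each mutant sample.

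Other pathways gave no call either. Of 10 Wnt target genes 3 were positive and 0 passed (median -0.42). Axin2, a feedback inhibitor of canonical Wnt signalling, averaged 38.2 in mutants and 39.9 in controls (-0.09, SE 0.38). Ccnd2, cyclin D2, had a lowest, median and highest value of 396, 522 and 762 in controls and 211, 278 and 444 in mutants. It did not overlap at E8.0, where controls had 565, 396 and 417 and mutants 244, 247 and 211. Its difference of -0.77 (SE 0.17) had an edgeR adjusted p of 0.587. Of 9 FGF receptor and response genes 7 were positive (median 0.29), of 10 posterior second heart field genes 8 (median 0.50), and of 5 Hedgehog response genes 0 (median -0.25). Hoxb1, a retinoid-responsive gene of the posterior heart field, averaged 70.6 in mutants and 36.1 in controls (1.04, SE 0.45).

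The list of low oxygen and glycolysis genes leaned one way without a called gene. The list was chosen with earlier results of these data known, so its direction is a description only. Its genes with too few UMIs were not tested. Over all stages 18 of 18 tested were positive and 0 passed, with a median log2 difference of 0.98 against 9.26e-05 over all 5390 genes. At E9.5 again 18 of 18 were positive and 0 passed, with a median of 1.79 against 0.02. At E8.0, 8 genes of the list were tested, of which 6 were positive and 0 passed, with a median of 0.42 against -0.01. Summed over the list, E9.5 control members had 5160, 5421, 5947 and 4733 CPM and mutants 11755, 5147 and 11914, so that 1 mutant, Bar20, lay within the control range. The mutants Bar19 and Bar21 had 151 and 136 Y-linked CPM over all cells, Bar20 had 10.4 and the controls 2.74 to 8.58. The part of sex in this list was not tested. Ddit4, an mTOR inhibitor induced by stress, had 27.8, 3.29, 28.5 and 28.2 in E9.5 controls and 527, 110 and 193 in mutants, without overlap (4.02, SE 0.77, edgeR adjusted p = 0.165). Hk2, hexokinase 2, averaged 574 in mutants and 148 in controls (1.88, SE 0.45), and Ndrg1, a hypoxia-induced gene, 98.1 and 4.92 (3.75, SE 1.08). Ndrg1 had few UMIs, with 3, 1, 1 and 0 in the E9.5 controls and 17, 6 and 4 in the mutants. At E8.0 Ddit4 had 10.3, 9 and 55.8 in controls and 0, 32.7 and 70.4 in mutants, which overlapped.

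In the other cells of these E9.5 samples, the summed list and Ddit4 were higher in mutants than in controls, without overlap. There the summed list stood at 4649, 4810, 4879 and 3605 in the 4 control samples and at 7761, 6653 and 8310 in the 3 mutant samples. Ddit4 in other cells was at 15.3 to 18.5 in these controls and at 123 to 209 in these mutants. In the test of the difference between members and other cells, 0 of 23 genes of the list passed, of which 18 could be tested in members alone. A miss of the threshold does not show that the effects were alike.

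Whether an effect of Wls loss was particular to the Isl1/Fgf cells was tested on 14 barcode samples with the sample as a block. Of 17000 genes, 27 (0.159%) passed edgeR's quasi-likelihood test, 10 of which had a genotype effect shifted upward in members and 17 downward. With DESeq2 only 1 passed, and without the block only 1 did, while leaving out Bar29 or Bar3 raised the count to 51 and 50. Many of these genes entered the fit only through the deeper sums of the other cells, since 5390 genes could be tested in members alone. Tnni1, Tpm1 and Nkx2-5, of the cardiomyocyte list, were among those with a more negative effect. Tnni1 had a lowest, median and highest value of 36.1, 93.5 and 423 in control and 19.3, 30.1 and 133 in mutant members, and of 122, 146 and 250 against 128, 230 and 278 in other cells (difference of effects -1.77, SE 0.30, adjusted p = 7.9e-05). Krt18, a keratin of simple epithelia, had medians of 274 and 140 in control and mutant members and of 185 and 258 in other cells (-1.15, SE 0.21). Its partner Krt8 had medians of 262 and 176 in members and 198 and 342 in other cells (-1.04, SE 0.21). Nkx2-5 differed by -3.88 (SE 0.81) and Phlda2 by -1.51 (SE 0.25). In members Nkx2-5 had few UMIs, with 26 in the control Bar22, 0 to 7 in the other control samples and 0 or 1 in each mutant sample. The 8 cardiomyocyte markers, with Myl7, Tnnt2, Ttn and Myl4 of the rule among them, summed to 162 to 1019 CPM in control and 116 to 352 in mutant member samples. The 6 endoderm and epithelium markers, with Krt8, Krt18 and the rule gene Epcam among them, summed to 273 to 972 and 154 to 700. By class these 6 summed to 395 in the Tbx1 class, 673 in the Hox and Cdx class and 389 in cells with neither. The shares of the classes differed between control and mutant members, as given above, and the part of this in the 27 genes was not tested. The cap on contractile genes that defines members and the cardiomyocytes among the other cells both bear on the cardiac genes, and their part was not tested.

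Ccnd2, of the Wnt target list, also passed in this test. Its effect in members was more negative than in other cells by 0.75 (-0.75, SE 0.17, edgeR adjusted p = 0.015). In other cells its medians were 306 in controls and 294 in mutants. Of the genes with a more positive effect in members, Etv2, a master factor of blood and vessel progenitors, differed by 2.24 (SE 0.44), with 542 CPM in the E8.0 mutant Bar27 and at most 106 in any other member sample. The 5 endothelial markers summed to 14.2 to 171 CPM in control and 25.7 to 290 in mutant member samples, and their part was not tested. Tmem202 (6.01, SE 1.07) rested on the E9.5 mutant Bar19, at 279 CPM, and without that sample its difference was -4.55.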

How the data were processed

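Single-cell counts of UMIs per gene were deposited by the authors with a table assigning each cell to a barcode and condition, and were used as raw counts. Per the submitters' processing notes, Cell Ranger, kallisto and bustools 0.46.1 were used with GRCm38. The files held 51923 gene symbols, of which 51846 were found in GENCODE M21. There were 0 unused sample columns. The members, gene lists and classes were chosen with earlier results of these data known.

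Members were selected on raw UMI counts and summed per barcode sample. Sums were tested with edgeR 4.0.16 (quasi-likelihood test, TMM scaling, R 4.3.3, limma 3.58.1) at a Benjamini-Hochberg adjusted p under 0.05, with stage and run as terms or, between cell groups, the barcode sample as a block, because both groups come from the same barcode sample. DESeq2 1.42.0 was an alternative. A minimum of 10 members per sample was planned. Since only 4 samples reached 10 and no mutant sample exceeded 8, a minimum of 3 was used for stage, genotype and contractile-high comparisons and of 1 for Fgf8-only against Fgf10-only cells, chosen after the numbers of cells were seen. The comparisons with Irx1-positive and Fgf-negative cells kept 10. Shares were compared with an exact permutation test within stage and run (Python 3.11.15, scipy 1.17.1, statsmodels 0.14.6).

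Named genes were the 10 with the largest rise and the 10 with the largest fall per test among autosomal, named genes past the threshold with a mean of at least 10 CPM in a group, outside the 12 genes of the rule, and the genes of the lists. Levels of the classes of members were named after they were seen. Scrublet (scanpy 1.11.5) marked 0.5% of all cells and 1 member as doublets, and these were kept. Binomial and Poisson intervals, and limits of 3 counts for a count of 0, cover counting error only. The test scripts were tested on simulated data. Alternatives were another scaling and test, no filter on low counts, other minimum numbers of cells, reduction to 10000 UMIs per cell, other Fgf and contractile limits, single runs and stages, a Y-linked covariate and each sample left out.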

Additional observations from a re-analysis of the deposited data

Results flagged for a closer look

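In 3 of 13 groups of 4 to 10 samples checked for a value far from the rest, one sample stood apart. The limit used gives about 1 in 20 by chance for independent, normally spread values. Some of these groups shared samples or held zeros, so that rate need not apply to them. Wls in mutant members was at 51.4 CPM in the E8.0 mutant Bar27 and at 0 in the other 5 samples. Ddit4 in mutant members was highest in the E9.5 mutant Bar19, at 527 CPM. Among the 4 E9.5 controls, Ddit4 was lowest in Bar23, at 3.29 CPM.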

How the results depend on the processing

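Fewer cells than planned limited the depth: mutant sums were small, and a minimum of 20 cells per sample was not run for any comparison because none could be fitted, nor was a minimum of 10 for the genotype effects or their difference from other cells. Among 109 named results, 1330 values under an alternative were computed: 1006 kept their call, 323 lost it, 0 gained one, and 1, Tmem202 in the difference from other cells, turned to -4.55 without Bar19 and reached 11.53 without Bar9. The causes of the changes below were not tested.

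With DESeq2 the counts of called genes were 2 for genotype at E8.0, 2 at E9.5, 1 for the difference from other cells, 63 against Irx1-positive cells, 22 against cells without Fgf UMIs and 6 for Fgf8-only against Fgf10-only cells. With no filter on low counts they were 40 for genotype over all stages, 34 at E8.0, 57 at E9.5, 29 for the difference between stages and 175 for stage. With a minimum of 1 cell they were 23 for genotype at E9.5, 7 for the difference between stages and 62 for stage. With a minimum of 5 cells they were 28 at E8.0, 0 at E9.5, 2 for the difference between stages and 22 for stage. With 10 cells stage gave 114, and with 3 cells the comparison with Irx1-positive cells gave 294 and with cells without Fgf UMIs 200. At 10000 UMIs per cell the counts were 46 against Irx1-positive cells, 375 against contractile-high cells and 5 for the Fgf comparison. Genotype over all stages gave 1 without stage E8.0, 3 without E9.5 and 2 with at least 1 Fgf UMI. With at least 3 Fgf UMIs it gave 128 of 3715 genes, from only 6 samples. At E9.5 genotype gave 0 with the Y-linked covariate and 0 in run 1 only. Stage gave 15 without a run term.

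Without the replicate block, 1 gene passed in the difference from other cells, 170 against Irx1-positive cells, 887 against contractile-high cells, 31 against cells without Fgf UMIs and 14 in the Fgf comparison. Leaving out each sample in turn gave 0 to 1 genes for genotype over all stages, 0 to 3 at E8.0, 0 to 20 at E9.5, 0 to 5 for the difference between stages, 6 to 45 for stage, 19 to 51 for the difference from other cells, 62 to 264 against Irx1-positive cells, 685 to 817 against contractile-high cells, 9 to 35 against cells without Fgf UMIs and 3 to 24 in the Fgf comparison. The share of members differed by -0.365 to -0.173 points with each sample left out, by -0.050 at 10000 UMIs per cell, -0.294 with at least 1 Fgf UMI, -0.208 with at least 3, -0.203 with a contractile limit of 25, -0.234 without the Irx1 criterion, -0.0896 without E8.0 and -0.427 without E9.5.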
